A study of Homo sapiens with 18 samples.

Results

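H/ACA box small nucleolar RNAs (symbols beginning with SNORA) and small Cajal body RNAs (symbols beginning with SCARNA) were described in 2 acute myeloid leukemia (AML) cell lines, MV4-11 and THP1. The members were chosen by their symbol and by a mean of at least 1 TPM, the length-corrected share of a library's reads, over all 18 libraries, so their level is a description and was not tested. There were 76 members, 61 SNORA and 15 SCARNA, among 45372 gene symbols. They came from 175 SNORA and SCARNA symbols, of which 99 lay under 1 TPM and 53 of these were at 0 in every library. Just under the threshold were SNORA28 (0.899 TPM), SNORA80E (0.957 TPM) and SCARNA23 (0.979 TPM), and just above it SNORA33 (1.02 TPM), SCARNA4_1 (1.07 TPM) and SNORA31 (1.08 TPM). Both lines are established human cultures that carry a KMT2A rearrangement, and no group differed from its control by genotype. Cells of each line received the solvent DMSO, or 50 nM of the mitochondrial complex I inhibitor IACS-010759 (IACS) for 8 h or for 24 h, with 3 independent replicates in each of the 6 groups. The labels do not say how long the DMSO cells were cultured, and the same 3 DMSO libraries of a line served both time points.

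H/ACA RNAs fold into hairpins joined by a hinge with the H box (letters ANANNA) and end with the letters ACA a few bases before the 3' end. Together with the proteins dyskerin (DKC1), GAR1, NHP2 and NOP10 they guide the conversion of uridine to pseudouridine in ribosomal RNA, and a few of them take part in cutting the ribosomal RNA precursor. The small Cajal body RNAs work in Cajal bodies on the RNAs of the spliceosome, and carry H/ACA boxes, C/D boxes or both. In human cells nearly all of these RNAs are cut out of the introns of host genes, many of which encode ribosomal proteins and translation factors.

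A sequence was found for 74 members through GENCODE release 44 gene models on GRCh38. The letters ACA lay in the last 8 bases of 56 of 60 SNORA models (93.3%) and of 8 of 14 SCARNA models (57.1%), against 2 of 27 C/D box RNAs (SNORD symbols at the same threshold; 7.4%). When each sequence was split in 3 equal parts, the hinge letters ANANNA were in the central part of 55 of 60 SNORA models (91.7%), of 11 of 14 SCARNA models (78.6%) and of 8 of 27 SNORD models (29.6%). The searches were made on the RNA strand alone, and a match is a description of letters, not of a working box. The median length was 135 nt for SNORA, 267.5 nt for SCARNA and 104 nt for SNORD models. The sequences below are those of the most abundant member, of the members that were called with IACS in MV4-11, of SNORA74B, which was called in THP1 at 24 h when the replicate number was a term of the fit, of 2 members whose reads ran from 0 to over 100 between libraries, and of a near-identical pair. They are written 5' to 3' as DNA letters, with the matched H box and the ACA in capitals; SNORA74B had no ANANNA in the central part.
SNORA73A: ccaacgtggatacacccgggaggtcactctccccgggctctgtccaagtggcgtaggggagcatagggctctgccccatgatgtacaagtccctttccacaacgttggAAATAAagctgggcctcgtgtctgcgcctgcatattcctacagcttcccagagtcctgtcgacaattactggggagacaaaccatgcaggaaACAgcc
SNORA21: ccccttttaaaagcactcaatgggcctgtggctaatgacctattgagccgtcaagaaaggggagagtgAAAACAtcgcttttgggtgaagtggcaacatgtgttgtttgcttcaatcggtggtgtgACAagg
SCARNA21: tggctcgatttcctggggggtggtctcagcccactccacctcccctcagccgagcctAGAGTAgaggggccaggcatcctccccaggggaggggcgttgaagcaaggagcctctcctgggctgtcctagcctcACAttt
SNORA74B: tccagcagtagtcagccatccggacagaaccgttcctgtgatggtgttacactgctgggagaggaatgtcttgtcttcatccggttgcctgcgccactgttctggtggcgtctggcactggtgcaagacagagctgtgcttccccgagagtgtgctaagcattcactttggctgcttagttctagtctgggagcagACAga
SNORA8: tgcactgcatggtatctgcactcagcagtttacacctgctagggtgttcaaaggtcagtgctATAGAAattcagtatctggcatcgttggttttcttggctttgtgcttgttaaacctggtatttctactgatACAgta
SNORA70: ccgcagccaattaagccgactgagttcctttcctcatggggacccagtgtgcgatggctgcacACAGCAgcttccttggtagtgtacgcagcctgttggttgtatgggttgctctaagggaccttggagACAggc
SNORA7A: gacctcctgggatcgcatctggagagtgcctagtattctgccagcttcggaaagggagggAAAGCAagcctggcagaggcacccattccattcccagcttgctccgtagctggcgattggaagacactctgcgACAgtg
SNORA7B: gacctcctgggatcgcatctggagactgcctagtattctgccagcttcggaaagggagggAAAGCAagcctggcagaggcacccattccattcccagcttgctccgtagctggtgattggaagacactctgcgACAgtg

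SNORA73A lies at chr1:28507366-28507571 on the plus strand, inside RCC1 and over an exon of the non-coding host SNHG3. SNORA21 lies at chr17:38852863-38852994 on the minus strand inside the ribosomal protein gene RPL23, over an exon of an RPL23 transcript. SCARNA21 is intronic in the chromatin remodeller gene CHD3 (chr17:7906122-7906260, plus strand). SNORA74A is intronic in MATR3 and SNHG4, and SNORA74B is intronic in ATP6V0E1 (chr5:173020728-173020928, plus strand). SNORA8 lies in TAF1D (chr11:93732361-93732499, minus strand) and SNORA70 in RPL10 (chrX:154400281-154400415, plus strand), both over an exon of their host. SNORA7A is within RPL32 (chr3:12840312-12840450, minus strand), over an exon, and SNORA7B within a non-coding gene (chr3:129397210-129397348, minus strand), in an intron. Of the 74 members with a sure locus, 73 lay inside another gene on the same strand, 59 of them in a protein-coding and 14 in a long non-coding gene, and SNORA11F lay outside. SCARNA4_1 and SNORA50A_1 had no sure locus.

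The libraries were made from total RNA with a kit meant for longer RNAs. Whether the reads of a member stem from its mature form, a precursor or a host transcript cannot be told from the values. Within each library the TPM of a short gene moved in steps of 1 read (or read pair, which the table cannot tell apart), and all values of the 76 members came out whole within 0.1 read. At 135 nt, 1 TPM was worth 1.18 to 1.89 reads. The members together held 17848 to 41037 reads in a library (median 27180) and 0.636% to 1.49% of all TPM. A few abundant cytoplasmic and nuclear RNAs (the RN7SL, RN7SK, RMRP and RPPH1 rows) held 39.6% to 60.1% of all TPM, so the TPM of every other gene moves with them. Each library is a bulk sample, in which fewer cells of a type and less RNA per cell cannot be told apart. Both lines expressed the myeloid genes CD33 (24.0 to 85.4 TPM), SPI1 (85.6 to 147 TPM) and LYZ (613 to 7073 TPM) in every library, whereas CD14 stayed under 0.53 TPM. Of markers of T, B, red and epithelial cells, CD3D, CD3E, CD2, MS4A1, HBA1, HBB, EPCAM and CDH1 stayed under 0.3 TPM, and CD79A and KRT18 reached at most 3.23 TPM.

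The level of the members spanned more than 3 orders of magnitude, with a median of 9.89 TPM, and a few RNAs held most of it. SNORA73A, which takes part in processing of the 18S ribosomal RNA precursor, was the highest at a mean of 3208 TPM over the 18 libraries, followed by its sister SNORA73B at 1995 TPM. Both together held 37.2% to 58.8% of the member TPM of a library. The Cajal body RNAs SCARNA2 (1073 TPM), SCARNA7 (816 TPM) and SCARNA13 (583 TPM) came next, and SNORA48 (574 TPM), hosted by the translation factor gene EIF4A1, was sixth. In DMSO, SNORA73A was at 3923, 3260 and 4150 TPM in MV4-11 and at 2436, 2550 and 1465 TPM in THP1. All 3 MV4-11 values lay above all 3 THP1 values.

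**Figure D1:**
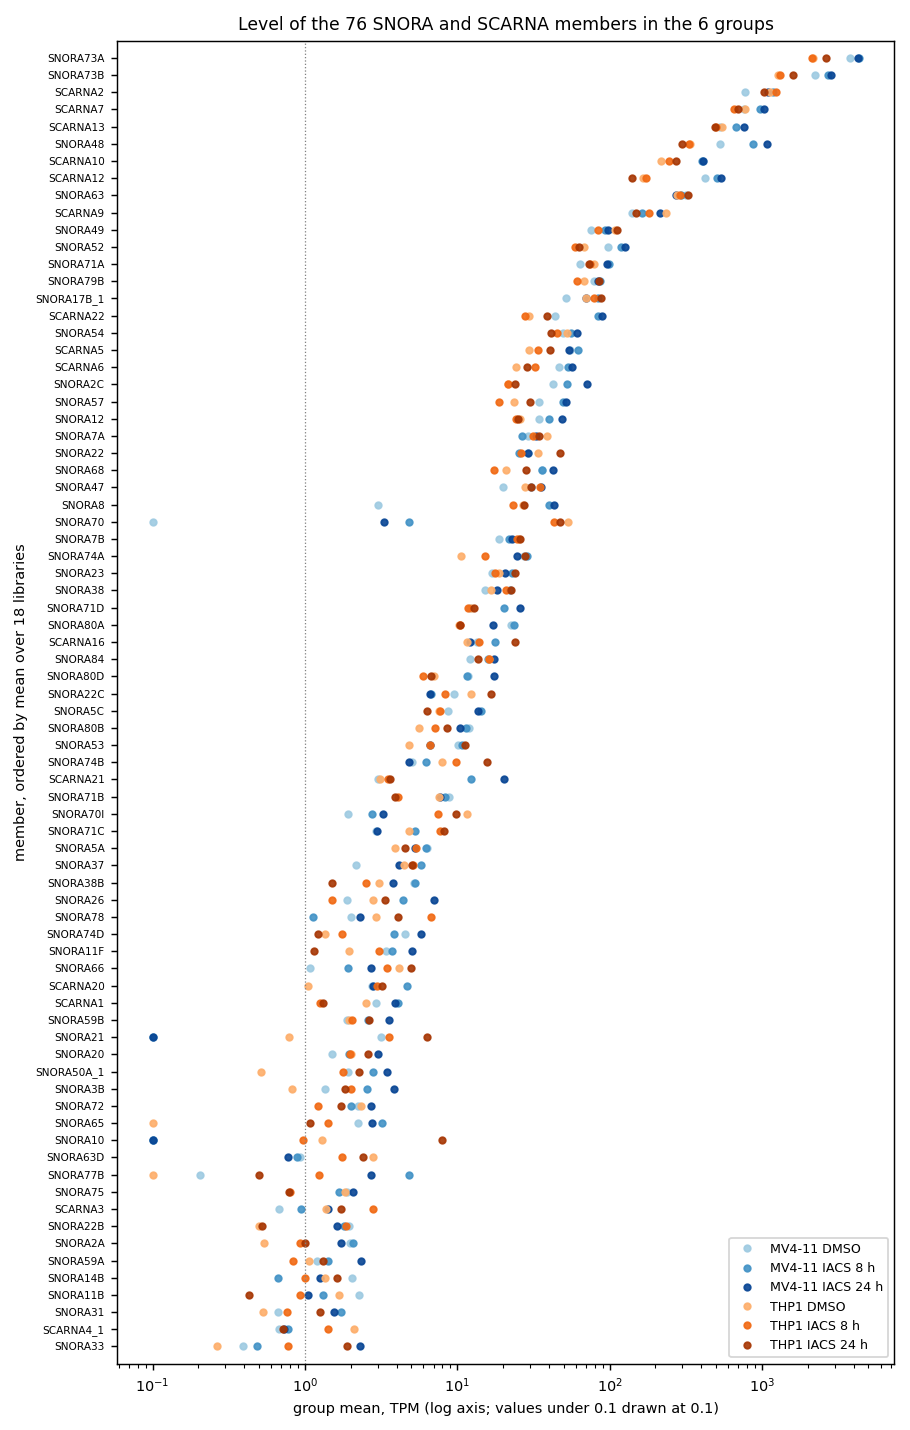
Mean level of each of the 76 members in each of the 6 groups, in TPM on a log axis, with members ordered by their mean over 18 libraries and a dotted line at 1 TPM. Values under 0.1 TPM are drawn at 0.1. SNORA73A and SNORA73B have the highest means over the libraries (3208 and 1995 TPM), and SNORA70, SNORA21 and SNORA10 reach the bottom of the axis in MV4-11 groups with 0 reads.

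The reads behind a value set how far it could be read. On average over the libraries, 31 members had under 10 reads, 28 had 10 to 100 and 17 had at least 100. A read was present in every library for 47 members, and 29 were at 0 in at least 1 library. A count of 0 allows a level of up to 3 reads, and such limits cover counting error alone. Within groups of 3 replicates the median SD on the log2(TPM + 1) scale was 0.533 for members at 1 to 10 TPM, 0.378 at 10 to 100 TPM and 0.27 above 100 TPM. For all genes these medians were 0.197, 0.174 and 0.167, and for the SNORD RNAs 0.829, 0.546 and 0.377.

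Many members varied beyond counting error, and those that lie over an exon of another gene on the same strand varied more within each class of depth. The variance of the reads within groups divided by their mean is 1 for counting error alone, and at the same relative spread it grows with the reads. It had a median of 2.65 over the members, and was under 2 for 27 and over 10 for 19. At 10 to 100 reads its median was 11.7 for the 11 members over an exon and 2.68 for the 17 others. At 100 reads or more it was 53.9 (n = 11) and 13.9 (n = 6), and under 10 reads 2.33 (n = 9) and 1.52 (n = 20). The median SD on the log2(TPM + 1) scale was likewise 0.700 and 0.467 at 10 to 100 reads, 0.367 and 0.302 at 100 or more, and 0.943 and 0.711 under 10 reads. Depth was not equal within a class, and from 10 reads upward the members over an exon tended to have more reads. The variance over mean of both sets is therefore not compared at equal depth. Without regard to depth, the SD was alike for both sets, with medians of 0.560 (n = 31) and 0.579 (n = 43). This comparison was made after the values were seen and has no test. The overlapped exon was not always one of the host, being of MIR1291 for SNORA2C and of MIR3651 for SNORA84. How many of a member's reads stem from transcripts of the overlapping gene cannot be told from the values.

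**Figure D2:**
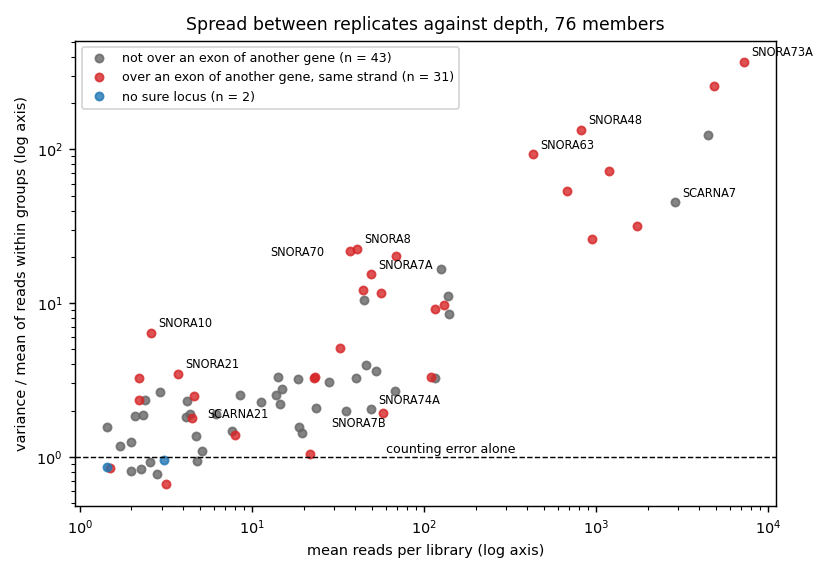
Variance over mean of the reads within groups (log axis) against mean reads per library (log axis) for the 76 members, coloured by whether the member lies over an exon of another gene on the same strand. The dashed line at 1 marks counting error alone, and at 10 to 100 reads the members over an exon sit higher (median 11.7) than the others (median 2.68).

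A near-identical pair, chosen after its values were seen, held both cases in the same libraries. The sequences of SNORA7A and SNORA7B shown above shared 98.6% of their bases (2 edits), and they averaged 49.6 and 35.3 reads. SNORA7A, over an RPL32 exon, had a variance over mean of 15.5, and the intronic SNORA7B had 1.98. In MV4-11 with IACS for 8 h, SNORA7A was read 101, 21 and 8 times and SNORA7B 49, 33 and 19 times. The files do not show how reads that match both copies were shared, so the values of each are uncertain. The same holds for SNORA22C and SNORA22 (98.5% identity), SNORA70I and SNORA70 (94.1%), SNORA73A and SNORA73B (93.2%), SNORA22B with SNORA22 and SNORA22C (92.8%) and SNORA80B and SNORA80A (91.9%).

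Some members had 0 reads in a library and many in its replicate. In MV4-11, SNORA8 had 9, 0 and 5 reads with DMSO, 84, 0 and 92 after 8 h of IACS, and 2, 49 and 136 after 24 h. In THP1 its reads were 35, 45 and 29, then 46, 12 and 67, then 30, 38 and 62. The MV4-11 replicates thus ran from 0 to over 90 reads in the same group, while every THP1 library held at least 12. SNORA70, SNORA80D and SNORA10 were the other 3 members with 0 reads in a library and over 20 in another. The difference of SNORA8 with IACS in MV4-11, 2.35 at 8 h and 2.76 at 24 h on the log2(TPM + 1) scale, was the highest among members at 10 TPM or more in this line, and its standard error was 1.55 (adjusted p = 0.983 and 0.507, limma).

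In MV4-11, replicate 3 of 8 h and replicate 3 of 24 h of IACS stood apart from the other 7 libraries, and members lay apart in both directions. These 2 libraries were more like each other (r = 0.974 over the 37 members with a mean of at least 20 reads) than like any other library of the line. Of these 37 members, both libraries lay above the range of the other 7 for 10 members and below it for 7, 45.95% in all. Over 7711 genes with at least 10 TPM in MV4-11 the same was so for 34.5%, 2620 above and 39 below.

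SNORA63, in the translation factor gene EIF4A2, had 72 and 37 reads in these libraries against 344 to 718 in the other 7. SNORA48 had 1747 and 2452 reads against 633 to 1109. SCARNA22, in NSD2, had 171 and 209 against 36 to 81. For these 3 members, chosen after their values were seen, the pair did not overlap the other 7 libraries. Each of the 3 lies over an exon of its host. SNORA7A, SNORA57, SNORA79B, SNORA22, SCARNA10 and SNORA49 were below the range as well, and SNORA8, SNORA47, SCARNA2, SNORA71A, SNORA12, SCARNA13, SCARNA12 and SCARNA7 above it. What sets the 2 libraries apart was not tested, and results of the IACS groups of MV4-11 are given below with and without them.

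**Figure D3:**
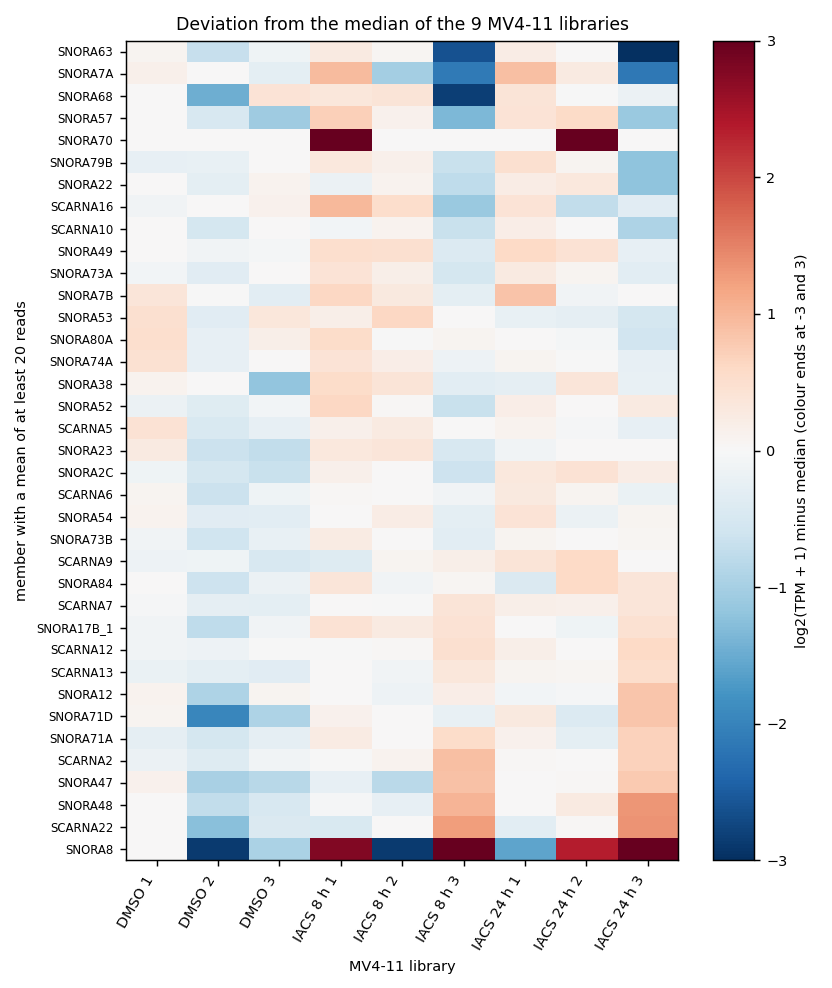
Deviation of log2(TPM + 1) from the median of the 9 MV4-11 libraries, for the 37 members with a mean of at least 20 reads (rows) in each library (columns). The columns of replicate 3 at 8 h and at 24 h share a pattern, with SNORA63 and SNORA7A low and SNORA48, SCARNA22 and SNORA8 high.

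The comparison of IACS with DMSO in MV4-11 asked which members respond to block of complex I. A member was called when limma gave a Benjamini-Hochberg adjusted p under 0.05 over all genes tested and a change of TPM + 1 over 1.5-fold. Differences are given on the log2(TPM + 1) scale, which understates the change of low genes. Genes averaging under 1 TPM over the 9 libraries of the line were not tested. At 8 h, 1 of 73 members tested was called, SNORA21 as lower, and over all 13542 genes tested 0.0148% were called. At 24 h, 2 of 73 were called, SCARNA21 higher and SNORA21 lower, against 0.0886% of all genes. SNORA21 met the 1 TPM filter through its DMSO libraries alone, so its calls are given as a description and support nothing. The median difference of the members was 0.24 at 8 h and 0.34 at 24 h, and that of all genes 0.06 and 0.08. Both comparisons share the DMSO libraries, so they are not independent of each other.

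SCARNA21, a Cajal body RNA, was at 2.09, 3.13 and 3.86 TPM with DMSO, at 9.34, 12.3 and 15.4 TPM after 8 h, and at 15.1, 11.8 and 33.8 TPM after 24 h. These were 3, 5 and 7 reads, 16, 18 and 20 reads, and 21, 16 and 50 reads. All 6 treated libraries were above all 3 controls, and the highest was replicate 3 of 24 h, which stands apart. The difference was 2.29 (SE 0.31, 95% interval 1.60 to 2.97) at 24 h with an adjusted p of 0.0286 in limma, and 1.73 (SE 0.31) at 8 h with an adjusted p of 0.176. Without the 2 libraries that stand apart it was 1.86 (adjusted p = 0.00531, limma) at 24 h and 1.57 (adjusted p = 0.0251) at 8 h. The call at 24 h was lost when any of the 3 DMSO libraries or replicate 1 of 24 h was left out (adjusted p up to 0.172, limma). Its host CHD3, not called, had a difference of 0.28 (adjusted p = 0.359, limma) at 24 h.

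SNORA21 was near the floor in this line. With DMSO it had 7, 4 and 3 reads (5.13, 2.64 and 1.74 TPM), and in all 6 IACS libraries it had 0 reads. The groups did not overlap, but 3 reads in these libraries would be 2.15 TPM at 8 h and 2.25 TPM at 24 h. By counting, SNORA21 was therefore at least 1.48-fold lower at 8 h and at least 1.41-fold lower at 24 h, and without DMSO replicate 1 these ratios were 1.02 and 0.974. The fitted difference was -1.98 at both times. Since the filter let SNORA21 in through the group in which it is high and both other groups had no spread, its p is not read as a test. Without the filter it was not called (adjusted p = 0.170 at 8 h and 0.116 at 24 h, limma). When any of the 3 DMSO libraries was left out SNORA21 averaged under 1 TPM and was not tested, and without replicate 1 or 2 of 8 h or of 24 h its call at that time was lost, as it was at 8 h without replicate 3. Without both libraries that stand apart it still met the filter through DMSO and was called at 8 h and 24 h. RPL23, the host over whose exon it lies, was at 285 TPM with DMSO, 355 TPM at 8 h and 384 TPM at 24 h, and was not called.

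**Figure D4:**
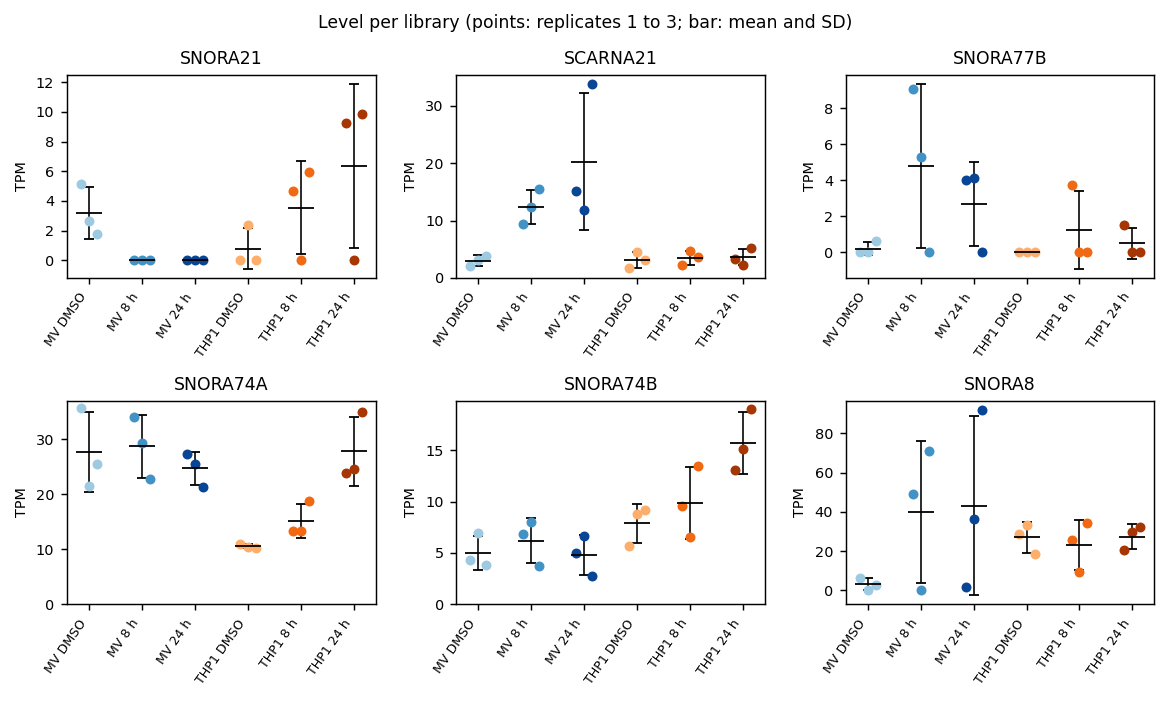
TPM of 6 members in each library (points, replicates 1 to 3 from left to right) with the mean and SD of each group of 3 (bars; MV stands for MV4-11 and the times are of IACS). SCARNA21 is higher in all 6 treated MV4-11 libraries, SNORA21 is at 0 in them, SNORA74A is highest in THP1 at 24 h (23.8 to 35.0 TPM), and SNORA77B and SNORA8 scatter from 0 upward within groups.

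With p left unadjusted (under 0.05, same fold threshold), 9 members had higher values at 8 h, against 0.532% of all genes, and 1 had lower values, against 0.14%. At 24 h these were again 9 (1.71%) and 1 (0.273%). After SCARNA21, the largest of the 9 at 24 h was that of SNORA26, at 1.71 (SE 0.44, adjusted p = 0.153, limma), with 4, 0 and 4 reads in DMSO and 8, 8 and 10 after 24 h. SNORA71D was also among them, at 0.91 at 8 h and 1.18 at 24 h (adjusted p = 0.983 and 0.287, limma). Among members at 10 TPM or more, the lowest differences were those of SNORA80D (-0.87, SE 0.82), SNORA7A (-0.68, SE 0.76) and SNORA63 (-0.52, SE 0.94) at 8 h, and of SNORA63 (-0.93, SE 0.94), SNORA80A (-0.35, SE 0.21) and SNORA7A (-0.27, SE 0.76) at 24 h. None of these was called, and for SNORA63 and SNORA7A the lowest values were those of the 2 libraries that stand apart.

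Leaving out the 2 libraries raised the number of calls in members and in all genes. At 8 h, 2 of 74 members were then higher (0.111% of 13495 genes) and 1 lower (0.126%). At 24 h, 8 were higher (2.65%) and 2 lower (0.6%). The 8 were SNORA66, SNORA80D, SNORA57, SCARNA9, SNORA2C, SNORA31, SCARNA21 and SNORA77B, and the 2 were SNORA75 and SNORA21. These names come from a choice made after the values were seen, with 2 libraries left in each IACS group. SNORA77B, in the nuclear transport gene RANBP1, was read 0, 0 and 1 times with DMSO, 14, 7 and 0 times at 8 h and 5, 5 and 0 times at 24 h. Its 0 in each IACS group is the library left out, so its difference of 2.77 at 8 h rests on the other 2. With a DMSO mean of 0.204 TPM it met the filter through its IACS libraries alone. Its call is therefore a description and supports nothing. The same holds for SNORA31, which averaged 0.668 TPM with DMSO (1, 1 and 1 reads). SNORA75 had 3, 3 and 3 reads with DMSO and 0 and 1 reads (0 and 0.75 TPM) in the 24 h libraries kept. It met the filter through the groups in which it was higher, so its call, too, is a description and supports nothing.

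Between 24 h and 8 h of IACS in MV4-11, limma called 0 of 73 members and 0% of all genes. At an unadjusted p under 0.05, 1 member was higher (0.229%) and 1 lower (0.236%), and the Kruskal-Wallis test gave 0 higher and 2 lower. Kruskal-Wallis counts, here and below, have no share over all genes beside them and are a description alone. Without the 2 libraries that stand apart, limma called 0 of 74 members (0.00741% of all genes), and at an unadjusted p 1 member was higher (1.36%) and 6 were lower (0.296%). The 6 were SCARNA1, SNORA75, SNORA5A, SNORA53, SCARNA16 and SNORA77B, and SCARNA9 was the higher one, in a choice of libraries made after the values were seen. The median difference of the members turned from 0.07 to -0.05 without these libraries, while that of all genes went from 0.02 to 0.13. Over all genes the replicate numbers paired these libraries (r of 0.110, 0.408 and 0.441), and with the number as a block limma again called 0 members. Over the members alone r was -0.0384, -0.229 and 0.527. Only replicate 3, the 2 libraries that stand apart, thus deviated together. SNORA80D had the largest difference among members at 10 TPM or more, at 1.39 (SE 0.82, adjusted p = 1.00, limma), from 32, 22 and 0 reads at 8 h to 25, 26 and 20 reads at 24 h. Replicate 3 at 8 h, which stands apart, held the 0, and the other 5 libraries of these groups held 20 to 32 reads.

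In THP1, no member passed at 8 h and SNORA74A rose at 24 h. At 8 h limma called 0 of 70 members, against 0.0144% of 13928 genes. At an unadjusted p under 0.05, 4 members were higher (0.136%) and 1 lower (0.625%), and the Kruskal-Wallis test gave 0 higher and 1 lower. At 24 h 1 of 70 was called, against 0.0431% of all genes. The median of all genes was -0.12 at both times and moved to 0.00 and -0.01 when libraries were scaled by the median of ratios. The median of the members was 0.02 and 0.20, and 0.16 and 0.33 after that scaling, and the gap between members and all genes was alike on both scales. The share of members above 0 was 38 of 70 at 8 h and 46 of 70 at 24 h.

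SNORA74A was at 11.0, 10.5 and 10.3 TPM with DMSO, at 13.3, 13.3 and 18.7 TPM after 8 h and at 23.8, 24.7 and 35.0 TPM after 24 h. Its reads were 19, 20 and 23, then 34, 24 and 52, then 50, 45 and 96. The 3 groups did not overlap each other. The difference was 1.29 (SE 0.18, 95% interval 0.90 to 1.69) at 24 h with an adjusted p of 0.0337 in limma, and 0.46 (SE 0.18) at 8 h with an adjusted p of 0.941. The call at 24 h was lost when any of the 3 DMSO libraries, replicate 1 of 8 h or replicate 1 of 24 h was left out (adjusted p 0.0644 to 0.184, limma).

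Over all genes, replicate numbers paired the THP1 libraries of DMSO with 24 h and of 8 h with 24 h. Over the members alone the same-numbered libraries of DMSO and 24 h did not deviate together (r of -0.185, -0.384 and 0.0406), and those of 8 h and 24 h did (0.270, 0.354 and 0.220). With the number as a block, 3 members were higher at 24 h than with DMSO (0.395% of all genes) and 3 lower (1.73%). Higher were SNORA74A (adjusted p = 0.000359, limma), SNORA74B at 0.92 (SE 0.16, adjusted p = 0.00676) and SNORA50A_1 at 1.20 (SE 0.36, adjusted p = 0.0482). SNORA74B, of the same family and 201 nt long, was at 5.72, 8.75 and 9.23 TPM with DMSO and at 13.1, 15.1 and 19.0 TPM at 24 h, with no overlap. SNORA50A_1 had 0, 2 and 0 reads with DMSO and 5, 2 and 3 at 24 h, the same number in replicate 2. Its DMSO mean was 0.515 TPM, so it met the 1 TPM filter through its IACS libraries alone. The 3 lower members were SCARNA4_1 (-0.85, adjusted p = 0.0171, limma), SCARNA9 (-0.65, adjusted p = 0.0154) and SNORA71B (-0.73, adjusted p = 0.0335). SCARNA4_1 fell from 2, 3 and 3 reads to 1, 1 and 1, and SNORA71B from 23, 24 and 12 reads to 11, 12 and 12. SCARNA4_1 averaged 0.715 TPM at 24 h and met the filter through the groups in which it was higher. The p of SNORA50A_1 and that of SCARNA4_1 are therefore not read as tests. SCARNA9 was at 309, 240 and 159 TPM with DMSO and at 146, 198 and 106 TPM at 24 h; each replicate was lower than its own control, while the groups overlapped. These members, other than SNORA74A, were chosen after their values were seen. Without the block the adjusted p was 0.388 for SNORA74B and 0.578 for SCARNA9 (limma).

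At an unadjusted p under 0.05 without the block, 6 members were higher at 24 h (0.467%) and 2 lower (1.74%). SCARNA16 was among them, at 21, 27 and 15 reads with DMSO and 34, 44 and 75 at 24 h, with a difference of 1.00 (SE 0.38, adjusted p = 0.529, limma). The lowest differences at 24 h among members at 10 TPM or more, after SCARNA9, were those of SNORA54 (-0.35, SE 0.21) and SCARNA12 (-0.26, SE 0.16). At 8 h the values ran from SCARNA9 (-0.39), SNORA68 (-0.39) and SNORA22C (-0.37) to SNORA38 (0.37), SCARNA6 (0.42) and SNORA74A (0.46), and none was called.

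Between 24 h and 8 h, limma called 0 of 70 members, against 0.00718% of all genes, with unadjusted p giving 6 higher (0.725%) and 0 lower (0.467%) and 4 higher and 2 lower by the Kruskal-Wallis test. With the block 1 member was called higher, SNORA74A, at 0.84 (adjusted p = 0.0074, limma; 0.445% of all genes higher). Among members at 10 TPM or more, SNORA22C had the largest difference between the times, 0.94 (SE 0.35, adjusted p = 0.850, limma), with 14, 13 and 12 reads at 8 h and 23, 21 and 31 at 24 h. SNORA68 (0.91, SE 0.46) and SCARNA16 (0.85, SE 0.38) followed, and SCARNA12 (-0.32, SE 0.16), SNORA84 (-0.26, SE 0.18) and SCARNA9 (-0.26, SE 0.31) were lowest.

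Whether the response to IACS differed between the lines was tested as an interaction over all 18 libraries. It called 0 of 76 members at 8 h and 0 at 24 h, against 0.00708% of 14117 genes at each time. At an unadjusted p under 0.05, 3 members passed at 8 h (1.53%) and 12 at 24 h (4.04%). The median interaction of all genes was -0.17 and -0.19, and 0.03 and 0.01 under median-of-ratios scaling; that of the members was -0.20 and -0.15, and -0.01 at both times. The interaction of SCARNA21 at 24 h, THP1 minus MV4-11, was -2.09 (SE 0.48, 95% interval -3.10 to -1.08, adjusted p = 0.241, limma). In THP1 SCARNA21 had 2, 6 and 5 reads with DMSO and 5, 3 and 10 at 24 h, with overlap. The interaction of SNORA74A was 1.43 (SE 0.27, adjusted p = 0.180, limma), and that of SNORA21 3.66 (SE 1.07, adjusted p = 0.472). SNORA21 in THP1 had 0, 3 and 0 reads with DMSO, 8, 0 and 11 at 8 h and 13, 0 and 18 at 24 h, so replicate 2 lay on the opposite side of the other 2 in each group. Without the 2 MV4-11 libraries that stand apart it again called 0 of 75 members at both times (0.00708% and 0.0283% of all genes), and at an unadjusted p 6 at 8 h (1.08%) and 9 at 24 h (4.59%).

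The replicate number as a term of the fit changed the count at 24 h. The interaction then called 1 member higher (0.0213% of all genes), SNORA74A (adjusted p = 0.0114, limma), and 2 lower (0.545%), SCARNA21 (adjusted p = 0.0304) and SCARNA9 at -1.24 (SE 0.25, adjusted p = 0.0484; 0.592 without the term). Same-numbered libraries of DMSO and 24 h had r over all genes of 0.146, 0.157 and 0.324 in THP1. In MV4-11 these were 0.269, 0.066 and 0.441, and replicate 2 alone was under the cut of 0.1. No difference in pairing between the lines is read from these values.

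The lines themselves differed in many members. With DMSO, 5 of 76 members were higher in THP1 (19.7% of all 14117 genes were called higher) and 13 were lower (17.2% called lower). At 8 h of IACS 2 were higher (15.2%) and 17 lower (25%), and at 24 h 9 were higher (15.6%) and 16 lower (27.2%). The median difference of the members was -0.23, -0.34 and -0.36, and that of all genes 0.01, -0.18 and -0.20. A member could meet the threshold of 1 TPM through the line in which it is high, so these counts describe the members and support nothing by themselves. For a member that averaged under 1 TPM in the lower group, the p is not read as a test. Across the 3 sets of libraries, which do not share samples, 37 members were called at least in 1 set, 39 in none, and none in opposite directions. SNORA70 was higher in THP1 in all 3, and SCARNA12, SCARNA6, SNORA2C, SNORA73A and SNORA73B were lower in all 3. Without the 2 MV4-11 libraries that stand apart, 1 of 75 members was higher at 8 h (17.5%) and 19 lower (20%), and at 24 h 5 were higher (15.5%) and 13 lower (26.7%), and these 6 members were still called in all 3 sets.

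SNORA70 had 0 reads in all 3 MV4-11 DMSO libraries, and 87, 105 and 8 reads in THP1. With IACS the 6 MV4-11 libraries held 24 reads in replicate 1 at 8 h, 13 in replicate 2 at 24 h and 0 in the other 4, and THP1 held 103, 49 and 57 reads at 8 h and 98, 23 and 102 at 24 h. By counting, against a floor of 3 reads in a library (1.93 TPM), THP1 with DMSO (mean 53.3 TPM) was at least 27.6-fold higher. That limit covers counting error alone, and SNORA70 varied beyond it, with a variance over mean of 21.9. The fitted difference was 5.07 (SE 1.05, adjusted p = 0.000519, limma). MV4-11 with DMSO had 0 reads and no spread, and SNORA70 met the filter through other groups. Its p is therefore not read as a test. Its host RPL10, a ribosomal protein gene, differed the other way, with 188 TPM in THP1 and 411 TPM in MV4-11 (difference -1.13, adjusted p = 1.09e-07, limma). SNORA70 lies over an exon of RPL10, and its relative SNORA70I was also higher in THP1, with 19, 15 and 11 reads against 4, 1 and 4 (difference 2.13, SE 0.48, adjusted p = 0.00111, limma). How reads that match both of these RNAs were shared is not known.

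SNORA8 was called higher in THP1 with DMSO at 3.17 (SE 1.29, adjusted p = 0.0490, limma), with the 9, 0 and 5 reads of MV4-11 given above. The call was lost in 17 of 30 alternative fits (adjusted p up to 0.190, limma), among them those without any of the 3 THP1 DMSO libraries or without MV4-11 DMSO replicate 2 or 3. At 8 h and 24 h of IACS its difference was 0.48 and 0.45 with a standard error of 1.29, and the lines overlapped. SNORA63D, at 1.15 (SE 0.40, adjusted p = 0.0226, limma), rests on 3, 4 and 4 reads in THP1 against 3, 0 and 1. SCARNA9, at 0.70 (SE 0.28, adjusted p = 0.0474), was at 309, 240 and 159 TPM in THP1 and at 150, 154 and 119 TPM in MV4-11. Its lowest THP1 library was only just above the highest MV4-11 library. The call of SCARNA9 was lost in 13 of 30 alternative fits (adjusted p up to 0.209, limma), among them those without any of the 3 MV4-11 DMSO libraries or without THP1 DMSO replicate 1 or 2, and its difference went down to 0.48.

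The members lower in THP1 included abundant RNAs with many reads. SCARNA12, in the prohibitin gene PHB2 and over an exon of it, was at 417, 401 and 443 TPM in MV4-11 and at 186, 152 and 163 TPM in THP1 with DMSO. How many of its reads stem from PHB2 transcripts cannot be told. Its difference was -1.33 (SE 0.17, adjusted p = 2.93e-06, limma), then -1.53 at 8 h and -1.94 at 24 h. SNORA73A was lower by 0.85 (SE 0.25) and SNORA73B by 0.82 (SE 0.19), with adjusted p of 0.00887 and 0.00152 in limma. In MV4-11 SNORA73B was at 2535, 1813 and 2352 TPM and in THP1 at 1372, 1458 and 975 TPM, with no overlap.

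SCARNA10 was at 460, 318 and 459 TPM in MV4-11 against 235, 205 and 210 TPM in THP1 (difference -0.91, SE 0.26, adjusted p = 0.00709, limma). SCARNA5 and SCARNA6 both lie in the autophagy gene ATG16L1 and differed by -0.82 (SE 0.25) and -0.90 (SE 0.19). Reads of SCARNA6 were 155, 103 and 170 in MV4-11 and 66, 64 and 57 in THP1, without overlap. SNORA2C (-0.96, SE 0.21), SNORA80A (-1.15, SE 0.32) and SNORA74A (-1.28, SE 0.19, adjusted p = 2.15e-05, limma) were also lower with no overlap of the groups. SNORA74A was at 35.7, 21.6 and 25.6 TPM in MV4-11 with DMSO against 10.3 to 11.0 TPM in THP1. At 24 h, where it had risen in THP1, the difference between the lines was 0.15 (SE 0.19) and was not called.

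The remaining 4 of the 13 rested on fewer reads. SNORA65 had 4, 2 and 4 reads in MV4-11 and 0 in all 3 THP1 libraries. By counting this sets no fold, because its MV4-11 mean of 2.23 TPM is under the floor of 2.36 TPM. The fitted difference was -1.66 (adjusted p = 0.000917, limma). The THP1 group had no spread and SNORA65 met the filter through other groups, so this p is not read as a test. SNORA74D had 9, 4 and 9 reads against 0, 3 and 3 (-1.33, SE 0.46, adjusted p = 0.0214). SNORA53 (-0.98, SE 0.39, adjusted p = 0.0412) and SNORA50A_1 (-1.08, SE 0.36, adjusted p = 0.0181) were called although their groups overlapped, with 32, 19 and 36 against 17, 8 and 9 reads and with 3, 2 and 4 against 0, 2 and 0 reads. Of 29 alternative fits each, SNORA53 lost its call in 10, SNORA50A_1 in 6 and SNORA74D in 4.

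**Figure D5:**
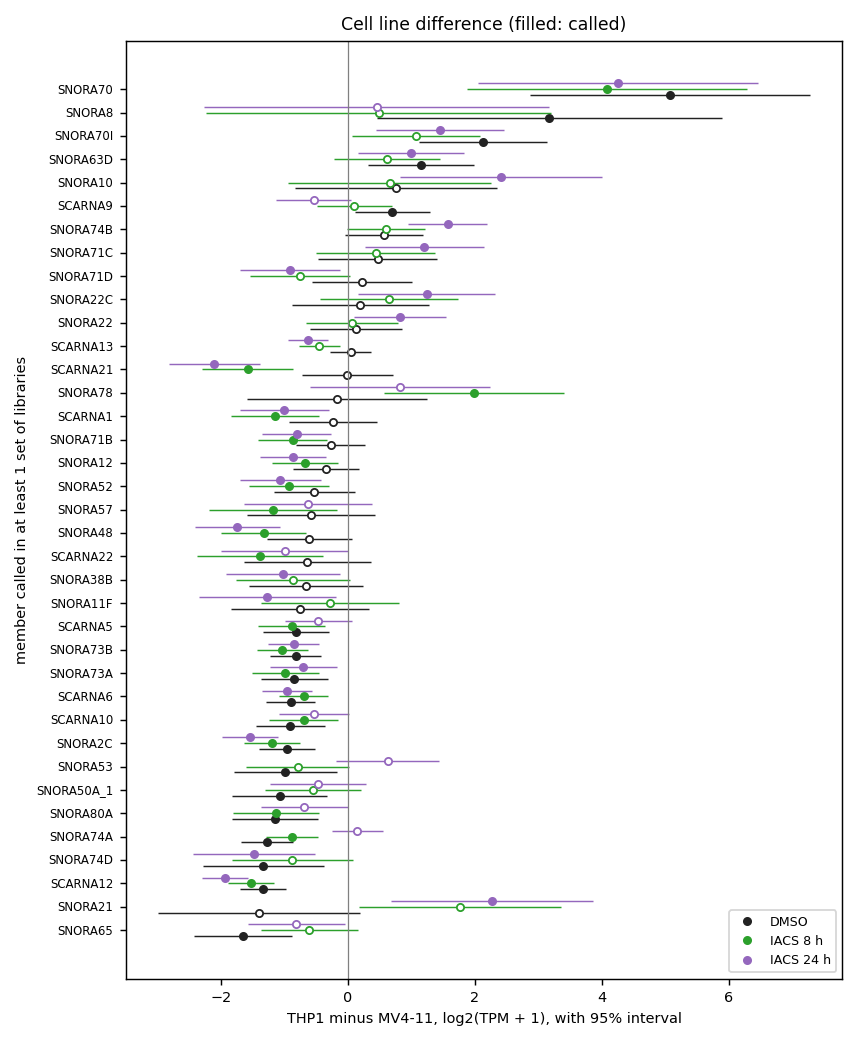
Difference of THP1 minus MV4-11 on the log2(TPM + 1) scale with its 95% interval, for the 37 members called in at least 1 of the 3 sets of libraries (DMSO, IACS 8 h, IACS 24 h; filled points are called). SNORA70 lies at the right in all 3 sets and SCARNA12 at the left, whereas SCARNA21 moves from -0.01 with DMSO to -2.10 at 24 h.

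Among the SCARNA members, at 8 h 7 of 15 were called lower and 0 higher in THP1, at 24 h 5 lower and 0 higher, and with DMSO 4 lower and 1 higher, by limma. SNORA members had 10 of 61 lower and 2 higher at 8 h, 11 lower and 9 higher at 24 h, and 9 lower and 4 higher with DMSO. Over all genes 25% were lower and 15.2% higher at 8 h, 27.2% and 15.6% at 24 h, and 17.2% and 19.7% with DMSO, so nothing particular to either class is read from these counts. The median difference of SCARNA members was -0.24, -0.55 and -0.54 with DMSO, at 8 h and at 24 h, and that of SNORA members -0.23, -0.28 and -0.23. SNORA48 was not called with DMSO but was lower in THP1 at 8 h (-1.32, SE 0.32) and at 24 h (-1.74, SE 0.32). Its 2 highest MV4-11 values were the libraries that stand apart, and without them the differences were -0.94 (adjusted p = 0.00172) and -1.35 (adjusted p = 6.27e-05, limma), and -0.61 with DMSO was called as well (adjusted p = 0.0129). SNORA78 was higher in THP1 at 8 h alone (1.99, SE 0.68, adjusted p = 0.0189, limma). At 24 h SNORA74B (1.57, SE 0.29), SNORA71C (1.21, SE 0.45), SNORA22C (1.24, SE 0.52), SNORA22 (0.82, SE 0.35) and SNORA21 (2.27, SE 0.76) were higher there. SNORA21 had 0 reads in all 3 MV4-11 libraries at 24 h and 13, 0 and 18 in THP1, so the groups overlapped at 0. It met the filter through other groups, and its p is not read as a test. Of the members just named, SNORA78, SNORA71C and SNORA22 were no longer called without the 2 libraries. At 24 h the count of members called higher went from 9 to 5, so others lost the call as well. Lower at both treated times but not with DMSO were SCARNA1, SCARNA21, SNORA12, SNORA48, SNORA52 and SNORA71B, with differences from -2.10 to -0.68, of which SCARNA1 at 24 h and SNORA12 at both times lost the call without the 2 libraries.

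SNORA10 had 0 reads in all 9 MV4-11 libraries, and 0, 5 and 0, then 5, 0 and 0, then 22, 0 and 15 reads in THP1; at 24 h the THP1 mean was at least 3.54-fold higher by counting, 1.82-fold without replicate 1 of 24 h, and the groups overlapped because replicate 2 was at 0 as well. The sum over all members ran from 9399 to 12008 TPM in MV4-11 with DMSO, from 12447 to 14851 TPM at 8 h and from 13400 to 14305 TPM at 24 h. In THP1 it ran from 6356 to 9086 TPM, from 7536 to 8326 TPM and from 7813 to 9849 TPM. The sum of the SNORD RNAs was 8592 to 13716 TPM in MV4-11 and 2038 to 3942 TPM in THP1.

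Whether a member and its host differed alike was read from the comparison of the lines. A host with a tested value was found for 65 members in the comparison of the lines with DMSO. Of the 14 called members with such a host, the host was called in the same direction for 5, in the opposite direction for 1 and was not called for 8. The 5 were SCARNA12 with PHB2 (-1.72), SCARNA10 with NCAPD2 (-0.77), SNORA2C with KANSL2 (-0.83), SNORA65 with RPL12 (-0.62) and SNORA70I with SNHG31 (0.90). SCARNA12 lies over an exon of PHB2, so reads of PHB2 transcripts may be counted in it, which was not tested. RCC1, which holds SNORA73A and SNORA73B, had a difference of -0.39 (adjusted p = 0.0798, limma). The non-coding SNHG3 holds both RNAs as well and was not compared, so their host counts as not called through RCC1 alone. Across the 65 members, some of which share a host and a library, Pearson's r between the differences of member and host was 0.148, given as a description. Of the members called with IACS in MV4-11, neither host was called. SNORA74B in THP1 at 24 h was 0.92 and its host ATP6V0E1 -0.21 (adjusted p = 0.623, limma). The host MATR3 had no row that could be matched and was not analysed here.

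The proteins that build and use these RNAs were measured in the same libraries. In the 6 IACS comparisons limma called 0 of the 4 H/ACA core proteins, the 5 assembly factors, the 16 Cajal body and SMN complex genes, the 7 genes of 3' end trimming, the 4 C/D core proteins and the 2 telomerase genes. With p left unadjusted the count was 2 in these lists, GAR1 and NHP2 lower in THP1 at 24 h (1.74% of all genes were lower). By the Kruskal-Wallis test it was 2 as well. Of the 28 SNORD and 25 spliceosomal RNA (RNU) genes, 26 and 24 were tested in MV4-11 and 22 and 21 in THP1, and limma also called 0. With p left unadjusted, at most 3 SNORD genes passed in a direction in any of the 6 (higher in MV4-11 at 24 h, against 1.71% of all genes). Up to 6 RNU genes were higher (THP1, 24 h against 8 h, against 0.725% of all genes), and 5 by Kruskal-Wallis. These counts are a description. At 24 h the core proteins had differences of -0.75 (GAR1; SE 0.22, adjusted p = 0.454), -0.62 (NHP2), -0.51 (DKC1) and -0.02 (NOP10) in THP1. In MV4-11 these were -0.36 (GAR1), -0.49 (NHP2; SE 0.13, adjusted p = 0.168, limma), -0.21 (DKC1) and -0.31 (NOP10). All 8 values were negative and none was called. The 8 values of the C/D core proteins at 24 h were negative as well (-0.45 to -0.35 in THP1 and -0.22 to -0.10 in MV4-11), and the median of all genes was -0.12 in THP1 and 0.08 in MV4-11.

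Between the lines with DMSO, 0 of 4 core proteins were called by limma, none differing by over 1.5-fold, and at 24 h DKC1 and GAR1 were lower in THP1 (2 of 4). SHQ1, a chaperone of dyskerin, was 1 of 5 assembly factors called with DMSO, the others not being called (-0.84, adjusted p = 0.000438, limma). Of all genes 17.2% were lower and 19.7% higher in THP1 with DMSO, and the counts of these lists are given beside those shares as a description. Of the 16 Cajal body and SMN complex genes 4 were lower in THP1 and 0 higher: GEMIN4 (-1.47), SMN2 (-0.94; SMN1 is a near-identical copy, so its value is uncertain), WRAP53 (-0.72), which brings these RNAs to the Cajal body, and GEMIN7 (-0.65). None of the 7 trimming genes was called or differed by over 1.5-fold, TOE1 being highest at 0.58 and PARN lowest at -0.38. Of the C/D core proteins FBL (-1.66) and NOP56 (-1.38) were lower. TERC, the telomerase RNA, which itself ends in an H/ACA domain, was lower in THP1 (-1.13, adjusted p = 7.23e-05, limma), and TERT was higher (1.61, adjusted p = 0.00282). Among the 28 SNORD RNAs 1 was higher and 5 lower, and among the 25 RNU genes 2 were higher and 4 lower.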

How the data were processed

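The library protocol was TruSeq RNA v2 on total RNA (on-column DNase), read as 100-bp pairs on a NovaSeq 6000. The authors trimmed reads (quality 20, 50 bp or longer), aligned them to GRCh38 (hg38) in CLC Genomics Workbench version 20 and deposited TPM per gene symbol. The annotation release and strand setting are not given in the sources used here; the kit does not mark strand, so reads of a member and an overlapping gene cannot be told apart by strand. TPM was read as log2(TPM + 1). limma 3.58.1 (lmFit, eBayes with trend; R 4.3.3) was fitted per line to genes averaging 1 TPM or more in its 9 libraries, and to all 18 for the lines and the interaction. Genes were called below an adjusted p of 0.05 (Benjamini-Hochberg, all genes tested) when TPM + 1 changed over 1.5-fold. No 2 libraries held identical values.

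Members, gene lists and tests were chosen with earlier results of these data known. Named were members called in any comparison, the 6 highest, the 3 largest rises and falls per IACS comparison among members at 10 TPM or more, SNORA21, SCARNA21, SNORA74A and SNORA8, their hosts, the neighbours of the threshold and the ends of each list; others are marked in the text. Replicate numbers were taken to pair groups when same-numbered libraries deviated together with r over 0.1 in all 3 pairs: THP1 DMSO and 24 h (0.146, 0.157, 0.324), THP1 8 h and 24 h (0.183, 0.277, 0.357) and MV4-11 8 h and 24 h (0.110, 0.408, 0.441). The scripts were tested on simulated data. Alternatives were the pseudocount, filter, scaling, block, variance trend, libraries fitted, adjustment, a Kruskal-Wallis test and leaving out each library. Loci came from GENCODE release 44 by symbol. A few markers and a sequence are not reported here.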

Additional observations from a re-analysis of the deposited data

How the results depend on the processing

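Alternatives were run for the 4 member calls with IACS and the 18 between the lines with DMSO, while single members called between the lines at 8 h or 24 h were refitted only without the 2 libraries that stand apart. The direction of these 22 held in all 609 alternative fits, and the call was kept in 530 and lost in 79, of which 17 were SNORA8, 13 SCARNA9, 10 SNORA53 and 10 SNORA21 at either time. Counts of called members depended on the setting, and the cause was not tested. The counts below stand without the share over all genes in the same setting. They show how calls move with the setting, and nothing about the members against other genes is read from them. In MV4-11 at 8 h (1 called) the count was 0 with a pseudocount of 0.1, with no filter, with genes averaging 10 TPM or more and with the replicate block under median-of-ratios scaling, 2 with the replicate block and with only the libraries compared, 3 without the 2 libraries that stand apart, 6 by Kruskal-Wallis and 10 with unadjusted p, and leaving out each library gave 0 to 2. In MV4-11 at 24 h (2 called) it was 0 with no filter, 1 with a pseudocount of 0.1 and with genes averaging 10 TPM or more, 4 with the replicate block, 7 by Kruskal-Wallis, and 10 with unadjusted p and without the 2 libraries, and leaving out each library gave 0 to 3; only SCARNA21 was called without replicate 2 of 24 h. Between 24 h and 8 h in MV4-11 (0 called) unadjusted p and Kruskal-Wallis each gave 2. In THP1 at 8 h (0 called) unadjusted p gave 5 and Kruskal-Wallis 1. In THP1 at 24 h (1 called) the count was 0 with no filter, 2 with median-of-ratios scaling and with TPM rescaled without the abundant RNAs, 4 with the replicate block under median-of-ratios scaling, 6 with the replicate block and by Kruskal-Wallis and 8 with unadjusted p, and leaving out each library gave 0 to 1. Between 24 h and 8 h in THP1 (0 called) it was 1 with the replicate block, with or without median-of-ratios scaling, and 6 with unadjusted p and by Kruskal-Wallis. The interaction (0 called) gave 3 at 8 h and 12 at 24 h with unadjusted p, and 3 at 24 h with the replicate block, with or without that scaling. The lines with DMSO (18 called) gave 12 with no filter and with genes averaging 10 TPM or more, 25 with only the libraries compared, and 13 to 19 when leaving out each library. The median level of the members was 19.7 TPM once the abundant RNAs were removed from the total, against 9.89 TPM. For DMSO and IACS in MV4-11, and DMSO and 8 h in THP1, the lowest r (0.034, 0.066 and 0.044) was under the cut of 0.1. The highest r there was 0.204, 0.441 and 0.479, so whether these libraries are paired was not settled. The replicate block there called 2, 4 and 0 members.

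Depth limits these results: 31 members averaged under 10 reads, where a call turns on a few reads, and 3 replicates per group give wide intervals. The values have no spike-in, so levels are relative to the RNA of the library.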
